A study of Mus musculus with 62 samples.

Results

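The genes described here are the 68 ligands and receptors of axon guidance that the symbol rule found among the 23038 genes of each deposited table. They comprise 13 Eph receptors, 8 ephrins, 20 semaphorins, 9 plexins, 2 neuropilins, 3 Slits, 4 Robo receptors, 4 netrins, 4 Unc5 receptors and Dcc. The rule used names alone and no measured value. Every member was followed by RNA sequencing through all 62 libraries of a study of Nova1, an RNA-binding protein of neurons that regulates alternative splicing. Each value is a total per gene, so changes of splicing that leave the total unchanged were not measured.

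The mice were BL6 and lacked Nova1 in inhibitory neurons (cKO); their controls were labelled cHet, a term the labels do not expand, and the Cre driver is not named in the sources used here. Ribosome-bound RNA was taken by translating ribosome affinity purification (TRAP) from whole brain at postnatal day 0, with 6 cKO and 6 cHet libraries; per the series text, TRAP served to capture inhibitory neurons. Whole tissue RNA at postnatal day 21 came from caudate putamen, substantia nigra, periaqueductal gray and hypothalamus (4 cKO and 4 cHet libraries each) and from pituitary (3 and 3). Neurons of the ventral diencephalon and mesencephalon were taken at e13.5, grown on laminin, given lentivirus at day 7 in vitro and harvested at day 14, with 4 libraries for each virus. The virus carried GFP-Cre with Impact (KO + Impact), GFP-Cre (KO) or GFP (WT); Impact encodes an inhibitor of the kinase GCN2 and is labelled a Nova1 target. The labels do not say whether the libraries of a group come from separate animals or cultures, so p-values measure the spread between these libraries, which may be technical.

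Growth cones steer by reading cues that attract or repel them. Ephrins are membrane-bound ligands of the Eph receptor tyrosine kinases and can also signal back into the cell that carries them. Semaphorins signal through plexins, with neuropilins as co-receptors for the secreted class, while Slits repel axons through Robo receptors. Netrins attract through Dcc and repel when Unc5 receptors take part, and in the mature brain many of these molecules are known from synapses, oligodendrocytes and blood vessels.

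Levels are given as CPM, the counts-per-million value of a library after trimmed-mean (TMM) scaling, and as RPKM, the same per kilobase of exon, where genes are compared with each other. Totals ranged from 7.38 M to 25.4 M tags in TRAP, 15.4 M to 24.3 M in the 4 brain regions, 2.24 M to 3.10 M in pituitary and 20.95 M to 29.5 M in primary neurons. The members took 0.168% to 0.581% of a library's tags. The totals include Rn45s, a ribosomal RNA gene, at 13.8% to 25.6% of tags in TRAP and 15.4% to 40.8% in pituitary. Its share was 0.472% to 1.89% in the 4 brain regions and 5.3% to 8.4% in primary neurons. Within pituitary it ranged from 25.6% to 40.8% in cHet and from 15.4% to 32.6% in cKO. Depth for other genes was thus below the totals, most so in TRAP and pituitary. Nova1 itself stood at 8.88 to 16.5 CPM in cKO TRAP libraries, against 98.4 to 124 CPM in cHet. In tissue its fold change was -1.86 on the log2 scale in caudate putamen (cKO minus cHet), -1.14 in substantia nigra, -0.61 in hypothalamus, -0.30 in periaqueductal gray (adjusted p = 0.11) and -0.85 in pituitary (adjusted p = 0.76). One library, caudate putamen cKO 1, carries a title of another region but a tissue tag of caudate putamen. The 4 cKO caudate putamen libraries, this one included, had summed striatal projection neuron markers of 2803 to 3433 CPM, against 26 to 34 CPM in periaqueductal gray. The library was used by its tag, and values without it are given where they differ.

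In ribosome-bound RNA at birth no member passed the test between cKO and cHet. Of the 60 members that passed the filter on low counts, 0 passed an adjusted p of 0.05 (edgeR's quasi-likelihood test over all 13009 genes tested, Benjamini-Hochberg), against 4 of all genes, or 0.0307%; Nova1 and Impact were among those 4. DESeq2 also called 0 members, and 6 had an unadjusted p under 0.05. The members' median log2 fold change was -0.07, against 0.00 for all genes. The filter left out Epha1, Epha2, Efna1, Sema3g, Plxnb3, Robo3, Robo4 and Ntn5, which were low in both genotypes. Summed inhibitory neuron markers, all 9 of them detected, lay at 1367 to 1559 CPM in cKO and 1533 to 1639 CPM in cHet, while summed excitatory neuron markers lay at 231 to 263 CPM in cKO and 213 to 267 CPM in cHet.

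Per length, the leading member of this ribosome-bound RNA was Efnb3, an ephrin known as a midline barrier to corticospinal axons. It averaged 81.2 ± 3.2 RPKM in cKO and 83.4 ± 3.1 RPKM in cHet (SD, n = 6 each). Plxna1, a receptor shared by several semaphorins through neuropilins, led the plexins at 30.8 ± 5.3 RPKM in cKO and 33.8 ± 4.4 RPKM in cHet. Sema6c and Sema6b, both membrane-bound, led the semaphorins; Sema6c averaged 27.2 ± 3.5 RPKM in cKO and 29.8 ± 2.1 RPKM in cHet. Robo2, a Slit receptor, averaged 26.7 ± 2.1 RPKM in cKO and 27.5 ± 1.4 RPKM in cHet. These leaders of different families thus lay within the spread of each genotype. The same held for Ephb1, the highest Eph receptor, at 21.4 ± 1.2 RPKM in cKO and 21.7 ± 1.1 RPKM in cHet. Nrp2, the receptor of class 3 semaphorins such as Sema3f, averaged 16.6 ± 1.9 RPKM in cKO and 17.4 ± 0.69 RPKM in cHet.

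Slit1 was the highest of the Slits at birth per length and had the largest fitted decrease of the 60 members, without passing the test. Slit1 had a lowest, median and highest value of 28.3, 66.1 and 77.8 CPM in cKO, against 65.2, 76.8 and 99.5 CPM in cHet. The groups overlapped, and the fold change was -0.36 ± 0.16 on the log2 scale (SE; adjusted p = 0.641, edgeR). Slit2 had 18.3, 24.9 and 27.5 CPM in cKO, against 22.8, 28.4 and 32.4 CPM in cHet, a fold change of -0.24 ± 0.10 (adjusted p = 0.641). Robo1, which binds both, had 249, 289 and 312 CPM in cKO, against 299, 312 and 343 CPM in cHet, a fold change of -0.13 ± 0.06 (adjusted p = 0.641). The highest cKO libraries of each of these 3 genes lay within the cHet range, and the decreases did not pass over all genes although each had an unadjusted p under 0.05.

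Sema4b, a membrane semaphorin, had the lowest p of any member in TRAP. It had 23.6, 28.3 and 33.8 CPM in cKO, against 33, 34.4 and 39.4 CPM in cHet, a fold change of -0.29 ± 0.08 on the log2 scale (unadjusted p = 0.00255, adjusted p = 0.55). Sema4a had 23.2, 27.8 and 31.2 CPM in cKO, against 27.2, 32.5 and 36 CPM in cHet (log2 fold change -0.23 ± 0.08, adjusted p = 0.621), and Sema6b had a fold change of -0.14 ± 0.06 (adjusted p = 0.644). Among netrins, Ntn4 had a fitted value of 0.29 (adjusted p = 0.769), and Unc5a of the receptors -0.15 (adjusted p = 0.718), neither of which passed. Ntn1, the founding netrin of the floor plate, had 52, 60.2 and 66.3 CPM in cKO, against 50.3, 63.5 and 71.6 CPM in cHet. Dcc, its attractive receptor, had 104, 120 and 142 CPM in cKO, against 106, 118 and 136 CPM in cHet, and the interval of its log2 fold change ran from -0.11 to 0.18. Unc5d, a repulsive netrin receptor that also binds Flrt proteins, had 57.5, 71.4 and 80.6 CPM in cKO, against 65.3, 75.9 and 78.6 CPM in cHet, with an interval from -0.21 to 0.07. The interval for Sema7a, the GPI-anchored semaphorin, ran from -0.12 to 0.10.

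**Figure D1:**
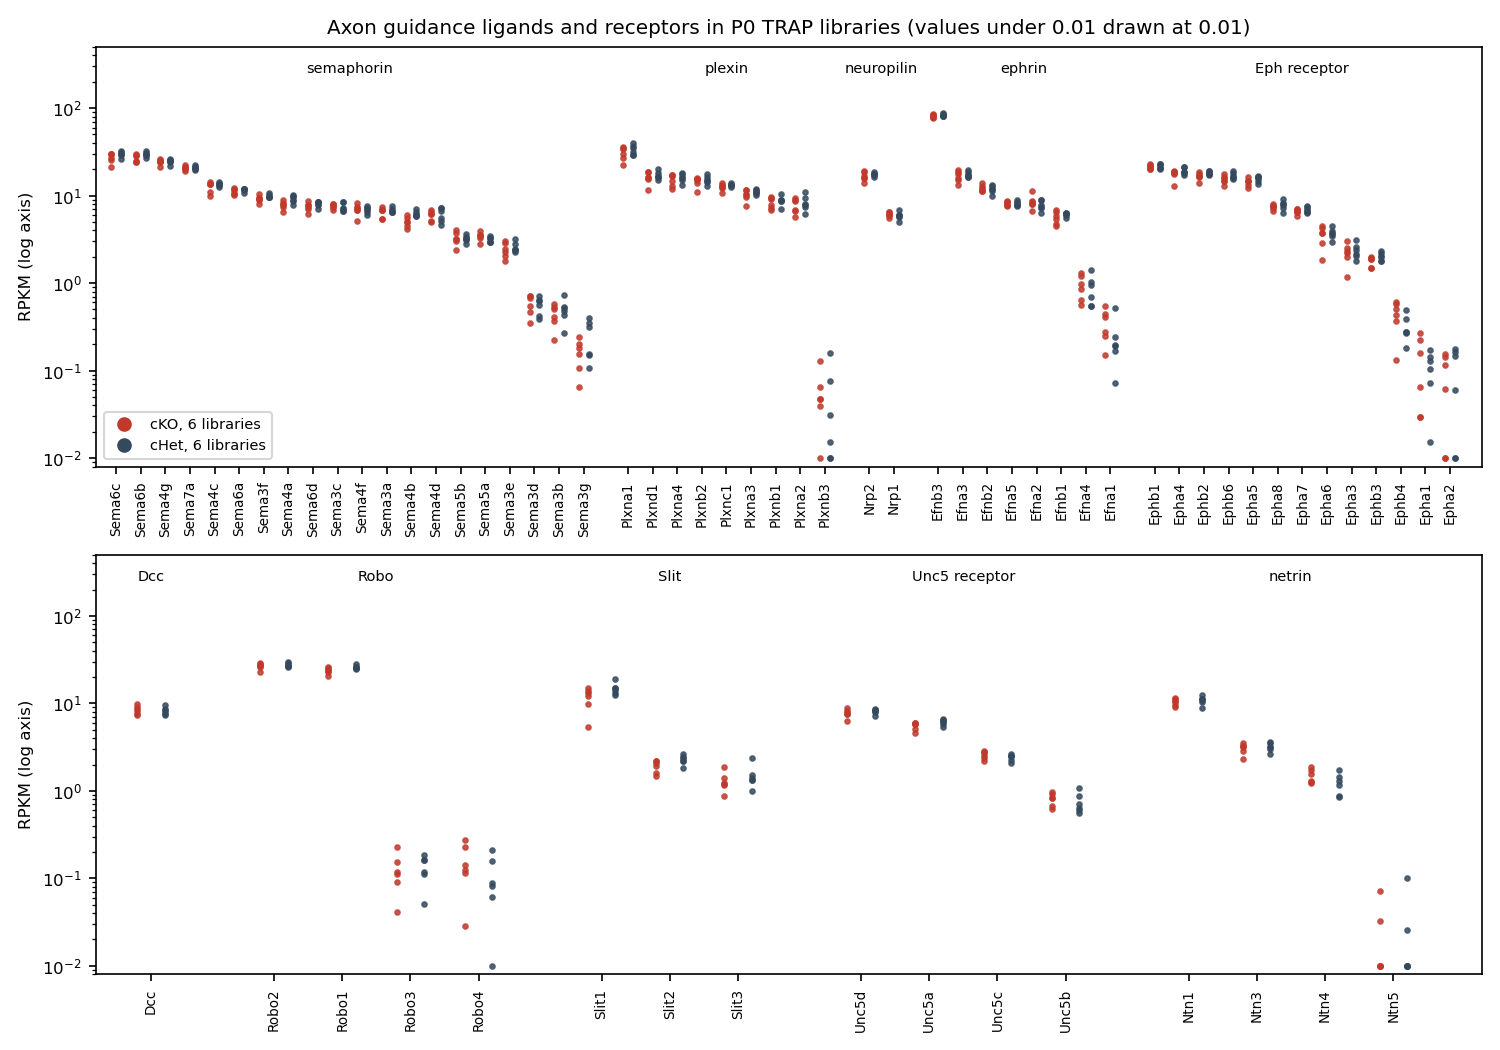
RPKM (log axis, values under 0.01 drawn at 0.01) of the 68 members by family in P0 TRAP, cKO left of cHet; each point is 1 of 6 libraries per genotype. The genotypes overlap for every gene drawn, Slit1 and Sema4b included, and Efnb3 is the highest.

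Among neurons in culture the 3 viruses also gave 0 called members without pairing, and a set of them once cultures of the same number were compared. Nova1 stood at 22.1 to 27.2 CPM in KO + Impact, 14 to 18.8 CPM in KO and 195 to 217 CPM in WT. Of 66 members tested, 0 passed between KO and WT (edgeR, 13 with an unadjusted p under 0.05; DESeq2 called 1, Ephb4), against 0.722% of 14829 genes. KO + Impact against WT gave 0 (7 with an unadjusted p under 0.05; DESeq2 called 1, Unc5d), against 0.378% of genes, and KO + Impact against KO gave 0 (2 with an unadjusted p under 0.05; DESeq2 called 0), against 0.00674%. The labels do not say what a shared number stands for. The numbers were treated as pairing because same-numbered libraries deviated together from their group means across viruses (correlation 0.167 to 0.363). Below, a culture means the library of that virus and number. With the number as a block, 8 members passed between KO and WT, against 6.35% of all genes, and 5 passed between KO + Impact and WT, against 3.39%. KO + Impact against KO remained at 0 members, against 0.182% of genes.

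Plxnb3, a plexin that binds Sema5a and is known from oligodendrocytes, was lower in KO than in WT cultures of the same number. Plxnb3 had 5.29, 5.78, 11 and 10 CPM in KO + Impact cultures 1 to 4, 3.3, 6.15, 8.41 and 10.4 CPM in KO cultures and 6.6, 10.1, 14.5 and 17 CPM in WT cultures. Levels differed as much between numbers as between viruses, so the groups overlapped, yet the WT culture was the highest at each number. The fold change of KO over WT was -0.77 ± 0.32 on the log2 scale without the block (adjusted p = 0.371) and -0.78 with it (adjusted p = 6.98e-05, edgeR). KO + Impact over WT gave -0.57 with the block (adjusted p = 0.00275) and -0.58 without (adjusted p = 0.69). Summed oligodendrocyte markers were 83.7 to 126 CPM in KO + Impact, 84.1 to 141 CPM in KO and 114 to 183 CPM in WT cultures; their part in the difference was not tested.

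Unc5d had 128, 119, 112 and 120 CPM in KO + Impact cultures, 110, 108, 113 and 121 CPM in KO cultures and 104, 106, 99.4 and 96.6 CPM in WT cultures. Every KO + Impact and KO culture lay above every WT culture. Its fold change over WT was 0.24 ± 0.05 in KO + Impact (adjusted p = 0.0523, and 0.00233 with the block) and 0.16 ± 0.05 in KO (adjusted p = 0.213, and 0.0373 with the block). Robo2 had 199, 202, 214 and 228 CPM in KO + Impact, 200, 210, 217 and 228 CPM in KO and 178, 192, 199 and 204 CPM in WT cultures. It was higher in KO than in WT at every number, and with the block passed in KO (0.14 on the log2 scale, adjusted p = 0.00421) and in KO + Impact (0.13, adjusted p = 0.019).

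The other members that passed with the block between KO and WT included Robo3, the Robo receptor of commissural axons, which had 5.27, 4.21, 5.56 and 4.4 CPM in KO and 3.79, 1.73, 3.65 and 3.45 CPM in WT cultures (0.65, adjusted p = 0.0125). Ephb4, known from veins, had 5.68, 5.46, 6.27 and 5.17 CPM in KO and 8.39, 8.53, 6.54 and 8.51 CPM in WT (-0.48, adjusted p = 0.0152, and 0.0835 without the block). All 4 KO cultures lay below all 4 WT cultures for Ephb4. The semaphorin receptors Plxnb1 (-0.17, adjusted p = 0.00786) and Plxnb2 (-0.12, adjusted p = 0.0272) were lower in KO by small amounts, and Sema4f was higher (0.20, adjusted p = 0.0386). Plxnb2 was likewise lower in KO + Impact than in WT (-0.13, adjusted p = 0.0294), as was Ephb1 (-0.14, adjusted p = 0.0347). Differences between the KO effects of TRAP and of cultured neurons passed for 0 of 67 members in 1 model (edgeR, with 5 members at an unadjusted p under 0.05; DESeq2 called 0), against 0.0197% of genes; assay, age and Cre delivery differ too.

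**Figure D2:**
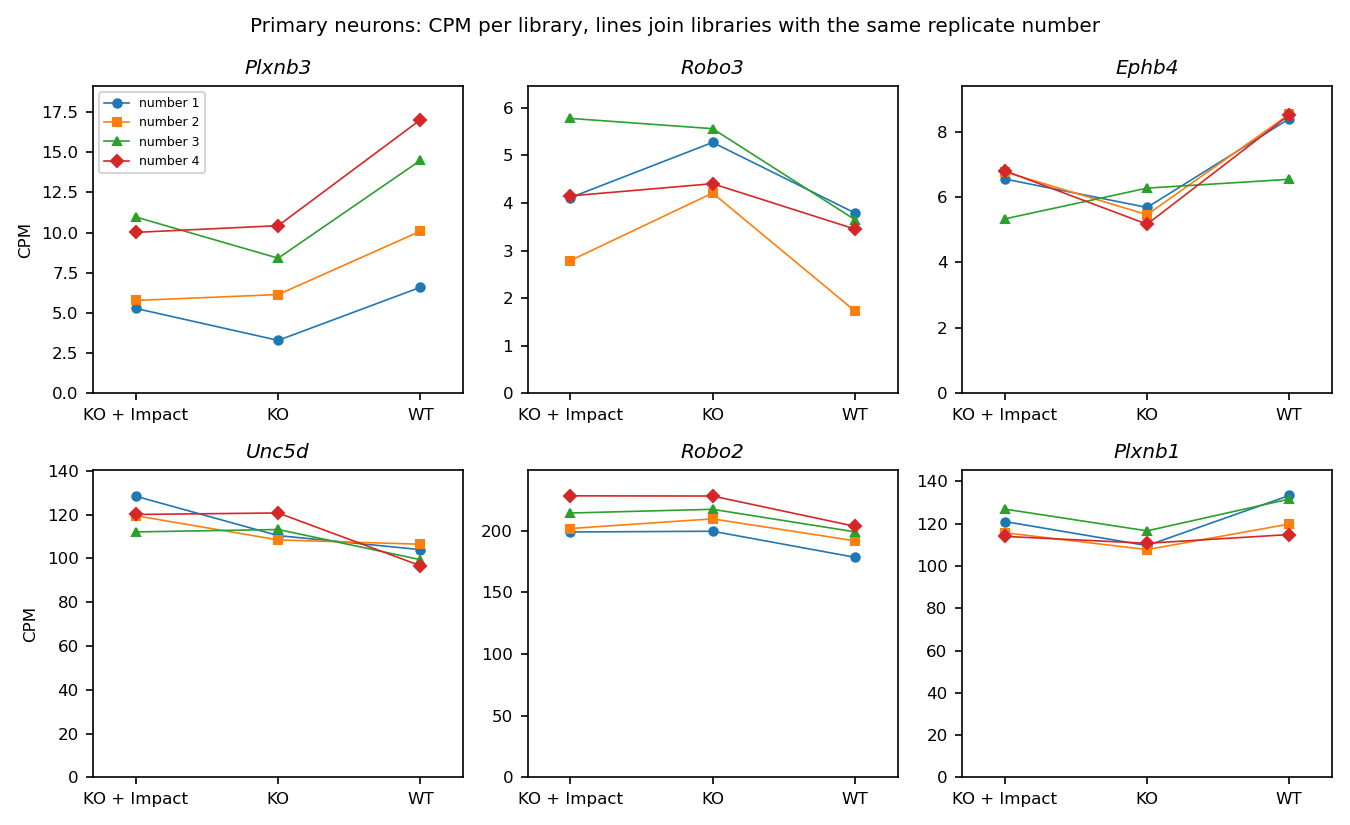
CPM (linear axis from 0) of 6 of the 8 members that passed between KO and WT with the culture number as a block; lines join KO + Impact, KO and WT cultures of the same number. For Plxnb3 the WT culture is the highest at each number, and for Unc5d all KO + Impact and KO cultures lie above the WT cultures.

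In the pituitary no member passed the test between genotypes. Of 56 members tested, 0 passed (edgeR, 10 with an unadjusted p under 0.05; DESeq2 called 0), against 0.00815% of 12265 genes; the 12 members under the filter were Epha3, Epha6, Epha8, Efna2, Efna3, Efna4, Sema3b, Sema4a, Sema5b, Plxnb3, Robo3 and Ntn5. Same-numbered libraries deviated together here too (0.137 to 0.144), and 0 members passed with the number as a block, against 0.269% of genes. Unc5d had 24, 12 and 13.2 CPM in cKO, against 7.86, 10.8 and 1.83 CPM in cHet, a fold change of 1.34 ± 0.47 on the log2 scale (adjusted p = 0.587). Its 3 cKO libraries lay above the 3 cHet libraries, at the lowest depth of the study. Per length Plxnb2, a receptor of class 4 semaphorins, led in pituitary at 46.6 ± 2.7 RPKM in cKO and 45.2 ± 4.5 RPKM in cHet (SD, n = 3 each). Summed pituitary markers were 67109 to 84677 CPM in cKO and 93834 to 97872 CPM in cHet.

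Differences that passed the test at postnatal day 21 lay in the 4 brain regions. In the hypothalamus 12 of 66 members tested passed, 4 higher and 8 lower in cKO, against 12% of 15207 genes (5.57% higher and 6.42% lower). In the periaqueductal gray 9 of 66 passed, 3 higher and 6 lower, against 9.73% of 14980 genes (4.33% and 5.4%). In the caudate putamen 3 of 66 passed, 1 higher and 2 lower, against 10.4% of 15017 genes (5.32% and 5.06%). In the substantia nigra 8 of 66 passed, 3 higher and 5 lower, against 9.81% of 14858 genes (4.35% and 5.46%). The members' shares, at 18.2%, 13.6%, 4.55% and 12.1%, lay above the share of all genes in hypothalamus, periaqueductal gray and substantia nigra and below it in caudate putamen, differences that were not tested. Efna4 and Ntn5 were under the filter in each region. In bulk tissue, fewer cells of a type and less RNA per cell cannot be told apart. Beside these counts, summed markers of endothelial cells and pericytes were lower in cKO without overlap in each region: 138 to 165 CPM in cKO against 183 to 214 CPM in cHet hypothalamus, 135 to 175 against 182 to 220 CPM in periaqueductal gray, 193 to 242 against 251 to 295 CPM in caudate putamen and 183 to 207 against 228 to 265 CPM in substantia nigra. Of the 10 oligodendrocyte markers, 6 were lower in hypothalamus, 3 each in substantia nigra and periaqueductal gray and 2 in caudate putamen, with overlapping sums in every region. In hypothalamus summed fibroblast markers (120 to 180 CPM in cKO, 187 to 320 CPM in cHet) and red cell markers (53.4 to 70.9 CPM in cKO, 75.1 to 99.1 CPM in cHet) were also lower without overlap. The part of these cell types in the members' differences was not tested.

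The members that passed in the most regions were Sema7a, Plxnb3, Plxna3, Unc5b and Unc5d. Sema7a passed in all 4 regions and Plxnb3, Plxna3, Unc5b and Unc5d in 3 each, while Efna3, Efna5 and Sema3c passed in 2. Sema7a lies at chr9:57939596-57962865 on the plus strand of GRCm38, Plxnb3 at chrX:73756556-73772510 (plus), Plxna3 at chrX:74328290-74344689 (plus), Unc5b at chr10:60762594-60831581 (minus) and Unc5d at chr8:28646717-29219671 (minus). Start regions are shown for the 4 members lower in 3 or more regions. Unc5d, higher in 3 regions, is not among them. The windows run 5′ to 3′ from 250 bases before to 50 after the start that the RefSeq window table uses (GRCm38.p6). Capitals mark the GC box, GGGCGG or its reverse complement CCGCCC. For Sema7a, Plxnb3 and Plxna3 that start lies inside the gene bounds given above, downstream of the outermost annotated 5′ end.
Sema7a, chr9:57939862-57940161 (plus): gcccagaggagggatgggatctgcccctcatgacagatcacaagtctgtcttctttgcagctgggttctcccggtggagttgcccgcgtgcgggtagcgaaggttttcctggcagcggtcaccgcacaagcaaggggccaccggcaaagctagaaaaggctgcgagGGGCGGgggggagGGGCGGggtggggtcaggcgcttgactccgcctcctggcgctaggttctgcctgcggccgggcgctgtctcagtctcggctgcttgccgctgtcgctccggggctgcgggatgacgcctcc
Plxnb3, chrX:73756853-73757152 (plus): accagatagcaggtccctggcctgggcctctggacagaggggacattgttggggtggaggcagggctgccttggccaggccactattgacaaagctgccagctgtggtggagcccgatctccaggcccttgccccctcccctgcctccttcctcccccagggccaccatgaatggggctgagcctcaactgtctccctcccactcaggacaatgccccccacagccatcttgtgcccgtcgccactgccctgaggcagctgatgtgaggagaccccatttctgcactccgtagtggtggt
Plxna3, chrX:74328816-74329115 (plus): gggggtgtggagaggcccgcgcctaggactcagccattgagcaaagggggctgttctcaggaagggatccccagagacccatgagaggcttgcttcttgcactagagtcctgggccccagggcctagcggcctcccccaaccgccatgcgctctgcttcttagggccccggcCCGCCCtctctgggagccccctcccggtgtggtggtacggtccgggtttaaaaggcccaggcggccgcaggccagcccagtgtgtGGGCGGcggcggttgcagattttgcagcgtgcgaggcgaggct
Unc5b, chr10:60831532-60831831 (minus): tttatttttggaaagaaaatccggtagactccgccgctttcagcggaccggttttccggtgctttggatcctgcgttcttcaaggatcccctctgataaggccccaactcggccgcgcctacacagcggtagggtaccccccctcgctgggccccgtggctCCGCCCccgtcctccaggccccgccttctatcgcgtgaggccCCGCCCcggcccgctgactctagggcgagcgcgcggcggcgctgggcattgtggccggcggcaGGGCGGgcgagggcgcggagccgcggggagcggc
The 4 windows differ in composition. Unc5b holds 36 CG dinucleotides, more than 94% of the 32851 windows in the table, Sema7a 23 (more than 78%), Plxna3 18 (more than 70%) and Plxnb3 4 (more than 31%). GC boxes on either strand number 3 in Unc5b, 2 in Sema7a, 2 in Plxna3 and 0 in Plxnb3; 35.7% of all windows hold at least 1. None of the 4 holds TATAAA (13.6% of windows, either strand), CACGTG (7.15%) or CCAAT (37.4%). No start window was at hand for Unc5d.

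Sema7a binds integrins and Plxnc1 and is known to promote axon growth. In substantia nigra it had 77.1, 85.3, 93.2 and 97.5 CPM in cKO, against 121, 120, 124 and 145 CPM in cHet, a log2 fold change of -0.52 ± 0.08 (adjusted p = 0.0025, edgeR). In periaqueductal gray it had 62.6, 67.6, 63.6 and 69.9 CPM in cKO, against 83.2, 92.5, 101 and 98.3 CPM in cHet (-0.51 ± 0.07, adjusted p = 0.000586). In both regions the highest cKO library lay well below the lowest cHet library. In caudate putamen, where its level was highest, Sema7a had 118, 144, 131 and 132 CPM in cKO, against 171, 149, 178 and 165 CPM in cHet (-0.34 ± 0.07, adjusted p = 0.00556, and 0.0137 without cKO 1). In hypothalamus it had 49.6, 50.2, 39.1 and 51.3 CPM in cKO, against 57, 48.2, 68.1 and 65.4 CPM in cHet (-0.32 ± 0.10, adjusted p = 0.0375). There the groups overlapped, and the call was lost in 6 of the 8 fits that left out 1 library: without cKO 1, 2 or 3 (adjusted p = 0.0588, 0.0529 and 0.105) and without cHet 1, 3 or 4 (0.0546, 0.13 and 0.115).

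Plxnb3 was highest in substantia nigra, where summed oligodendrocyte markers were also highest. It had 172, 179, 202 and 219 CPM in cKO, against 249, 259, 265 and 285 CPM in cHet substantia nigra (-0.45 ± 0.08, adjusted p = 0.00386). In hypothalamus it had 60.2, 72.8, 76.3 and 89.5 CPM in cKO, against 102, 107, 96.7 and 98.6 CPM in cHet (-0.44 ± 0.09, adjusted p = 0.00333). In both regions cKO and cHet did not overlap. Periaqueductal gray gave 94.6, 122, 114 and 134 CPM in cKO, against 136, 157, 161 and 154 CPM in cHet (-0.39 ± 0.09, adjusted p = 0.0113). Caudate putamen did not pass, with 85.8, 88.7, 100 and 109 CPM in cKO, against 113, 106, 114 and 117 CPM in cHet (-0.23 ± 0.07, adjusted p = 0.0514). The 3 calls held in every fit that left out 1 library. Summed oligodendrocyte markers overlapped in substantia nigra, at 43859 to 50479 CPM in cKO and 43622 to 59618 CPM in cHet.

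Plxna3, a receptor for Sema3f with Nrp2, passed in hypothalamus, caudate putamen and substantia nigra. It had 48.4, 57.4, 47.2 and 63.3 CPM in cKO, against 63.4, 75.2, 68.2 and 68.9 CPM in cHet hypothalamus (-0.35 ± 0.08, adjusted p = 0.0118). In caudate putamen it had 21.8, 23.1, 25 and 22.3 CPM in cKO, against 33.2, 31.3, 28.2 and 26.7 CPM in cHet (-0.38 ± 0.09, adjusted p = 0.0122, and 0.031 without cKO 1). The groups did not overlap in either region, though only just in hypothalamus. In substantia nigra it had 22.5, 22.2, 29.2 and 30.2 CPM in cKO, against 32.8, 32.4, 34.2 and 33.4 CPM in cHet (-0.34 ± 0.10, adjusted p = 0.0483), a call lost in 6 of 8 fits without 1 library (adjusted p = 0.135 without cKO 1, 0.144 without cKO 2, and 0.101, 0.088, 0.0786 and 0.0877 without cHet 1 to 4). In periaqueductal gray it stood at -0.29 ± 0.10 (adjusted p = 0.0759).

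Of the other plexins, Plxnd1, the receptor of Sema3e, rose in hypothalamus. It had 35, 34.8, 32.5 and 30.5 CPM in cKO, against 22.7, 24.2, 25.3 and 24.7 CPM in cHet (0.46 ± 0.08, adjusted p = 0.00109), with no overlap and in every fit without 1 library. Its ligand Sema3e, which is secreted, was lower in periaqueductal gray at 20, 16.2, 18.9 and 22 CPM in cKO, against 25.6, 23.5, 26.4 and 22 CPM in cHet (-0.34 ± 0.10, adjusted p = 0.0477). The groups met at 22 CPM, and the call was lost without any of cKO 1, 2 and 3 (0.0712, 0.162 and 0.0905) or cHet 1, 2 and 3 (0.113, 0.0841 and 0.106). Sema4b rose in hypothalamus, at 31.5, 33.9, 32.1 and 36.7 CPM in cKO, against 25.7, 29.6, 20.5 and 27.2 CPM in cHet (0.38 ± 0.10, adjusted p = 0.0147). Sema4a, by contrast, was lower there, at 62.3, 65.8, 70.3 and 68 CPM in cKO, against 84, 81.2, 72.6 and 73.2 CPM in cHet (-0.22 ± 0.06, adjusted p = 0.0287, but 0.0964 and 0.0699 without cKO 1 or 2 and 0.0942 and 0.0781 without cHet 1 or 2).

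Sema3c, a secreted attractant of cortical axons, was higher in substantia nigra and periaqueductal gray. It had 42, 60.1, 48 and 45.9 CPM in cKO, against 34.6, 39.3, 41.7 and 37.2 CPM in cHet substantia nigra (0.37 ± 0.10, adjusted p = 0.0351). Periaqueductal gray gave 42.1, 46.6, 55.7 and 51.7 CPM in cKO, against 39.2, 40.3, 42.7 and 38.9 CPM in cHet (0.28 ± 0.09, adjusted p = 0.0455). The groups were just apart in substantia nigra and overlapped in periaqueductal gray. The calls were lost in 5 of 8 fits without 1 library in substantia nigra (0.108 and 0.0605 without cKO 2 or 3 and 0.117, 0.0657 and 0.0699 without cHet 1, 2 or 4) and in 6 of 8 in periaqueductal gray (0.0761, 0.131 and 0.0948 without cKO 2, 3 or 4 and 0.0969, 0.096 and 0.112 without cHet 1, 2 or 4). In hypothalamus (0.05, adjusted p = 0.782) and caudate putamen (0.15, adjusted p = 0.47) it did not pass.

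Of the netrin receptors, Unc5d, Unc5b and Unc5a passed in at least 1 region and Unc5c and Dcc in none; Unc5c lay between -0.08 (caudate putamen, adjusted p = 0.729) and 0.11 (periaqueductal gray, adjusted p = 0.542). Unc5d was higher in hypothalamus at 97.9, 105, 98.4 and 101 CPM in cKO, against 71.1, 81, 74.1 and 82.5 CPM in cHet (0.38 ± 0.06, adjusted p = 0.000566). In periaqueductal gray it had 88.7, 92.4, 96.1 and 83.3 CPM in cKO, against 70.2, 62.5, 66.5 and 71.3 CPM in cHet (0.41 ± 0.07, adjusted p = 0.00168). In both regions every cKO library exceeded every cHet library. In substantia nigra it had 21.4, 21.6, 13.7 and 21.4 CPM in cKO, against 10.7, 9.47, 16 and 11.6 CPM in cHet (0.71 ± 0.17, adjusted p = 0.017). Here cKO 3 lay below cHet 3, and the call was lost without cKO 1 (0.0529), cKO 2 (0.0587) or cHet 1 (0.058). In caudate putamen Unc5d had 34.8, 33, 32.5 and 32.9 CPM in cKO, against 33.9, 28.7, 25.9 and 26.7 CPM in cHet (0.21 ± 0.09, adjusted p = 0.134).

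Unc5b, which is known from blood vessels as well as axons, was lower where it passed. It had 110, 88.2, 111 and 107 CPM in cKO, against 135, 127, 162 and 151 CPM in cHet substantia nigra (-0.46 ± 0.09, adjusted p = 0.00597). Periaqueductal gray gave 60.8, 58.6, 69.4 and 81.1 CPM in cKO, against 81.7, 90.1, 102 and 92.9 CPM in cHet (-0.44 ± 0.09, adjusted p = 0.0074). In both regions cKO lay below cHet without overlap. In hypothalamus it had 45, 46.3, 47.8 and 60 CPM in cKO, against 59, 58.6, 66.2 and 64.4 CPM in cHet (-0.32 ± 0.08, adjusted p = 0.0171); cKO 4 overlapped cHet, and the call was lost without cKO 1 or 2 (0.0629 and 0.0583) or cHet 3 or 4 (0.0555 and 0.0502). Unc5a was lower in substantia nigra alone among the 4 regional tests, at 18.9, 15.9, 19.9 and 17.2 CPM in cKO, against 24.7, 27.2, 26.9 and 24.2 CPM in cHet (-0.51 ± 0.09, adjusted p = 0.00463), in every fit without 1 library. Whether that differed between regions did not pass in edgeR's interaction test (adjusted p = 0.0633) but passed with DESeq2 (0.00932), with the replicate number as a block (0.0398) and without hypothalamus cHet 3 (0.039) or periaqueductal gray cKO 2 (0.0324). Of the ligands, Ntn4, a netrin of basement membranes, was lower in periaqueductal gray at 4.94, 5.18, 6.15 and 4.66 CPM in cKO, against 8.64, 7.93, 6.46 and 6.77 CPM in cHet (-0.51 ± 0.16, adjusted p = 0.046). The Ntn4 call was lost without cKO 1, 2 or 4 (0.103, 0.103 and 0.0912) or cHet 1, 2 or 4 (0.139, 0.109 and 0.0613).

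Among ephrins, Efna3 did not move one way across regions. In caudate putamen it had 30.8, 30.3, 21.4 and 22.4 CPM in cKO, against 18, 21.4, 20.6 and 18.4 CPM in cHet (0.42 ± 0.12, adjusted p = 0.0304). In periaqueductal gray it had 11.6, 8.04, 12.6 and 11.8 CPM in cKO, against 15.9, 15.9, 13.9 and 16.9 CPM in cHet (-0.51 ± 0.13, adjusted p = 0.0219). It was thus higher in one region and lower in the other. Substantia nigra (-0.44 ± 0.15, adjusted p = 0.078) and hypothalamus (-0.08, adjusted p = 0.691) did not pass. Efna3 was the 1 member whose genotype effect differed between regions in edgeR's interaction test (adjusted p = 0.027), against 0.318% of 16042 genes; DESeq2 also called Unc5a (0.00932) and Robo3 (0.00455). That call was lost without caudate putamen cKO 1 (0.0751), cKO 2 (0.0827), cHet 1 (0.0636) or cHet 4 (0.0606). The caudate putamen call was lost without the same cKO 1 (0.0902), cKO 2 (0.112), cHet 1 (0.0842) and cHet 4 (0.0805) and without cHet 3 (0.058), and the periaqueductal gray call without cKO 2 (0.0687), cHet 2 (0.056) or cHet 4 (0.0682). Efna3 (chr3:89313899-89322939, minus strand, GRCm38) overlaps an antisense gene, and unless the counting used strand their reads cannot be told apart.

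Efna5, a repulsive ligand in topographic maps, was higher in hypothalamus and substantia nigra. It had 40, 40.6, 39 and 37 CPM in cKO, against 34.5, 35.8, 31.7 and 32.2 CPM in cHet hypothalamus (0.22 ± 0.07, adjusted p = 0.0442). In substantia nigra it had 15.4, 18.6, 16.1 and 18.1 CPM in cKO, against 13.6, 13.9, 14.4 and 12 CPM in cHet (0.34 ± 0.10, adjusted p = 0.0445). The groups did not overlap in either region, but the calls were lost in 6 of 8 fits in hypothalamus (0.105, 0.117 and 0.0713 without cKO 1, 2 or 3 and 0.067, 0.115 and 0.117 without cHet 1, 3 or 4) and in 7 of 8 in substantia nigra, where only leaving out cKO 1 kept it (highest adjusted p 0.131, without cKO 2). Eph receptors passed in hypothalamus only among the 4 regional tests; none of them passed edgeR's interaction test. Ephb6, a kinase-inactive Eph receptor, had 62.1, 62.1, 57 and 61.2 CPM in cKO, against 67.1, 68, 68 and 74.5 CPM in cHet (-0.19 ± 0.06, adjusted p = 0.0401). Epha4, a receptor for both ephrin classes, had 118, 117, 102 and 103 CPM in cKO, against 125, 112, 138 and 137 CPM in cHet (-0.22 ± 0.07, adjusted p = 0.0479). Epha6 had 23.5, 27.6, 26.9 and 26.4 CPM in cKO, against 26.8, 34.3, 30.1 and 37.1 CPM in cHet (-0.30 ± 0.09, adjusted p = 0.0481). Epha4 and Epha6 overlapped between genotypes, and these 3 calls were lost in 7 of 8 fits without 1 library for Ephb6 (highest adjusted p 0.134, without cHet 4), 5 of 8 for Epha4 (0.142, without cHet 3) and 7 of 8 for Epha6 (0.169, without cHet 4).

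Slit and Robo genes passed in 1 case, Robo3 in periaqueductal gray, close to the floor of detection. Robo3 had 0.706, 1.4, 0.863 and 2.36 CPM in cKO, against 0.491, 0.19, 0.186 and 0.686 CPM in cHet (1.68 ± 0.47, adjusted p = 0.0303), lost without cKO 2 or 4 (0.0749 and 0.108) or cHet 2 or 3 (0.092 and 0.0774). Dcc did not pass in caudate putamen (-0.06), hypothalamus (-0.06), substantia nigra (-0.04) or periaqueductal gray (-0.11), with adjusted p from 0.384 to 0.898.

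**Figure D3:**
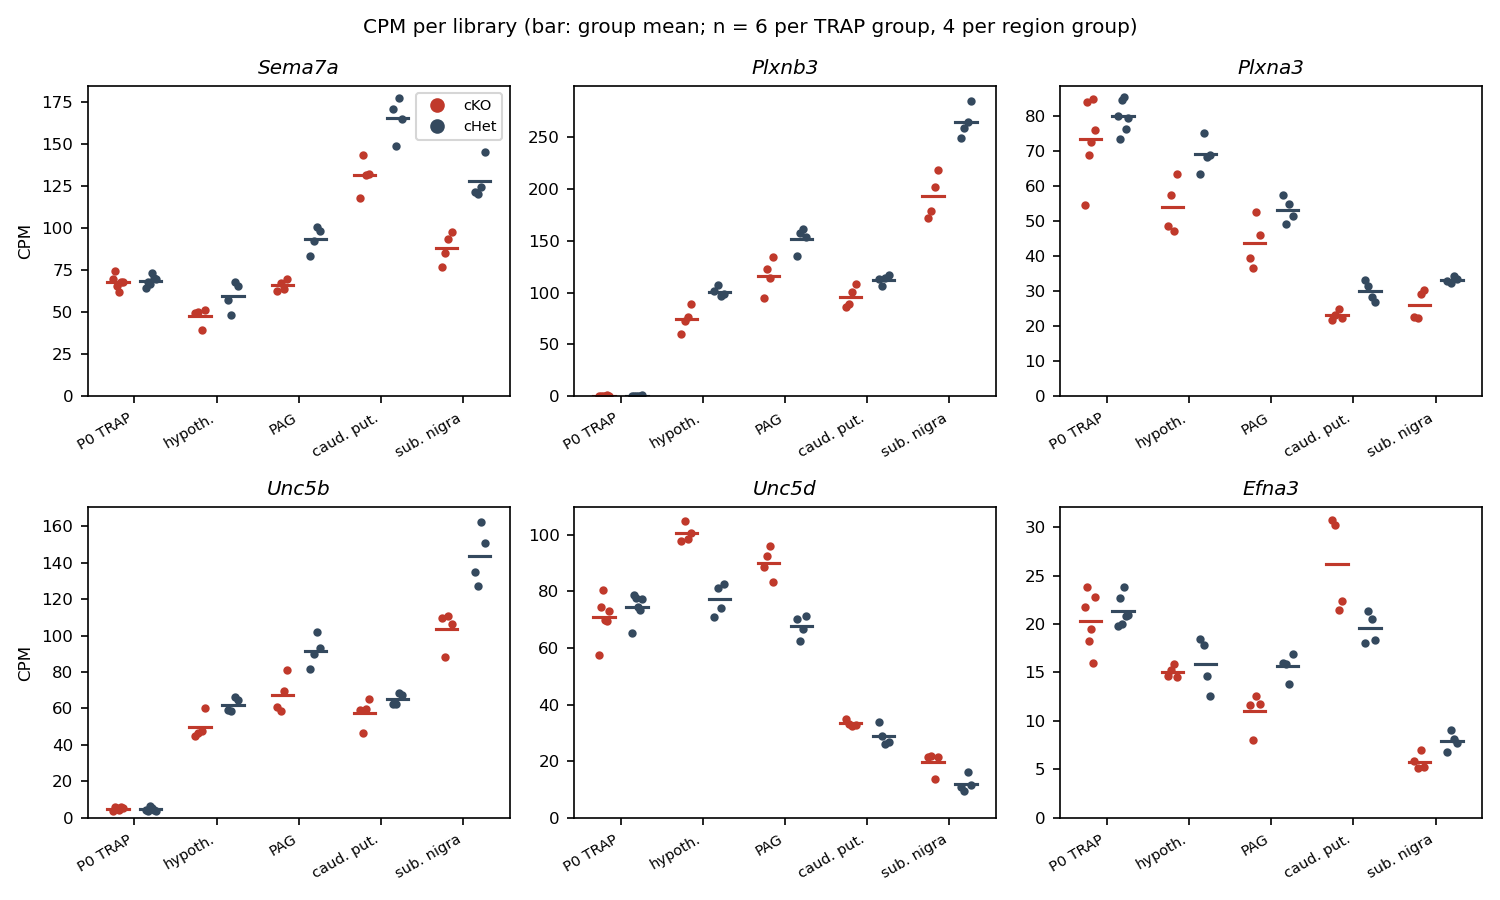
CPM (linear axis from 0) of Sema7a, Plxnb3, Plxna3, Unc5b, Unc5d and Efna3 in cKO (left of each pair) and cHet libraries of P0 TRAP and the 4 regions; each point is 1 library (6 per TRAP group, 4 per region group) and the bar the group mean. In the regions the means of Sema7a and Plxnb3 lie lower in cKO and that of Unc5d higher, while in TRAP the genotypes overlap for each gene drawn; Efna3 is higher in caudate putamen and lower in periaqueductal gray.

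Averaged over the 4 regions in 1 model, 23 of 67 members differed between genotypes, 9 higher and 14 lower in cKO, against 39% of 16042 genes (19.4% higher and 19.6% lower). Sema7a fell by 0.42 on the log2 scale (SE 0.05, adjusted p = 7.79e-09), Plxnb3 by 0.38 (SE 0.05, adjusted p = 9.87e-08), Unc5b by 0.35 (SE 0.05, adjusted p = 1.06e-06) and Plxna3 by 0.34 (SE 0.05, adjusted p = 2.95e-06). Unc5d rose by 0.43 ± 0.05 (adjusted p = 1.62e-07), Sema4b by 0.25 ± 0.04 (adjusted p = 2.39e-05) and Plxnd1 by 0.24 ± 0.05 (adjusted p = 0.000493). By role, 4 semaphorins were higher and 3 lower of 20, 2 plexins higher and 3 lower of 9, and both neuropilins lower (Nrp1 -0.17, Nrp2 -0.16). Of the 4 Unc5 receptors 1 was higher and 2 lower, of 3 netrins 1 lower (Ntn4, -0.30 ± 0.06), of 8 ephrins 1 higher (Efna5, 0.17) and 1 lower (Efnb1, -0.28 ± 0.07). Of 13 Eph receptors 1 was lower (Ephb6, -0.15 ± 0.04), of 4 Robo receptors 1 higher (Robo3, 0.64 ± 0.17) and 1 lower (Robo4, -0.38 ± 0.11, a Robo of endothelial cells), and of 3 Slits 0 passed (edgeR). Sema3c (0.21), Sema5b (0.20), Sema3e (-0.19) and Unc5a (-0.17) also passed. Over the same average 9 of 11 endothelial and pericyte markers and 7 of 10 oligodendrocyte markers were lower.

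The regional libraries may share mice, and the average then counts an animal more than 1 time. Same-numbered cKO libraries of different regions deviated together (median correlation 0.09 to 0.134 between region pairs). For cHet libraries these medians were lower, at 0.034 to 0.076. With the tags of the 4 regions summed by genotype and number (4 against 4, a comparison added after the data were seen), 15 members passed, 5 higher and 10 lower. The share of all genes that passed in this fit is not given here, so that count cannot be set against it. Calls kept included Unc5d (0.43, adjusted p = 0.000193), Sema7a (-0.44, 0.000352), Plxna3 (-0.31, 0.00193), Plxnb3 (-0.43, 0.00193), Sema4b (0.24, 0.00298) and Unc5b (-0.41, 0.00319). Calls lost were Nrp1, Nrp2, Plxnd1 (0.05, adjusted p = 0.62), Robo3 (0.11, adjusted p = 0.456), Sema4d, Sema5b, Sema6a and Unc5a. The sum follows the regions with most tags of a gene, while the average weights the 4 regions equally. Plxnd1 and Robo3 were highest in caudate putamen (log2 difference from the other 3 regions in cHet 3.30 and 4.46). The part of this weighting in the lost calls was not tested.

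The 8 members called in 2 or more regions stood as follows in the other material. In TRAP their log2 fold changes ran from -0.12 (Plxna3) to 0.12 (Unc5b), with Plxnb3 at 0 to 0.672 CPM in cKO and 0 to 0.833 CPM in cHet. In KO against WT cultures Sema7a (0.03 ± 0.11), Plxna3 (0.04 ± 0.05), Efna5 (0.01 ± 0.07), Sema3c (0.12 ± 0.10), Unc5b (-0.12 ± 0.18) and Efna3 (0.20 ± 0.09) did not pass, and KO + Impact against WT gave -0.07 for Unc5b to 0.15 for Sema3c among the same 6. In pituitary Sema7a (0.13 ± 0.41), Unc5b (-0.20 ± 0.42), Efna5 (-0.29 ± 0.21), Plxna3 (-0.43 ± 0.20) and Sema3c (0.02 ± 0.51) did not pass. The intervals of Sema7a and Unc5d in TRAP (-0.12 to 0.10 and -0.21 to 0.07) do not reach their average regional values of -0.42 and 0.43; age and material differ, and this difference was not tested.

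**Figure D4:**
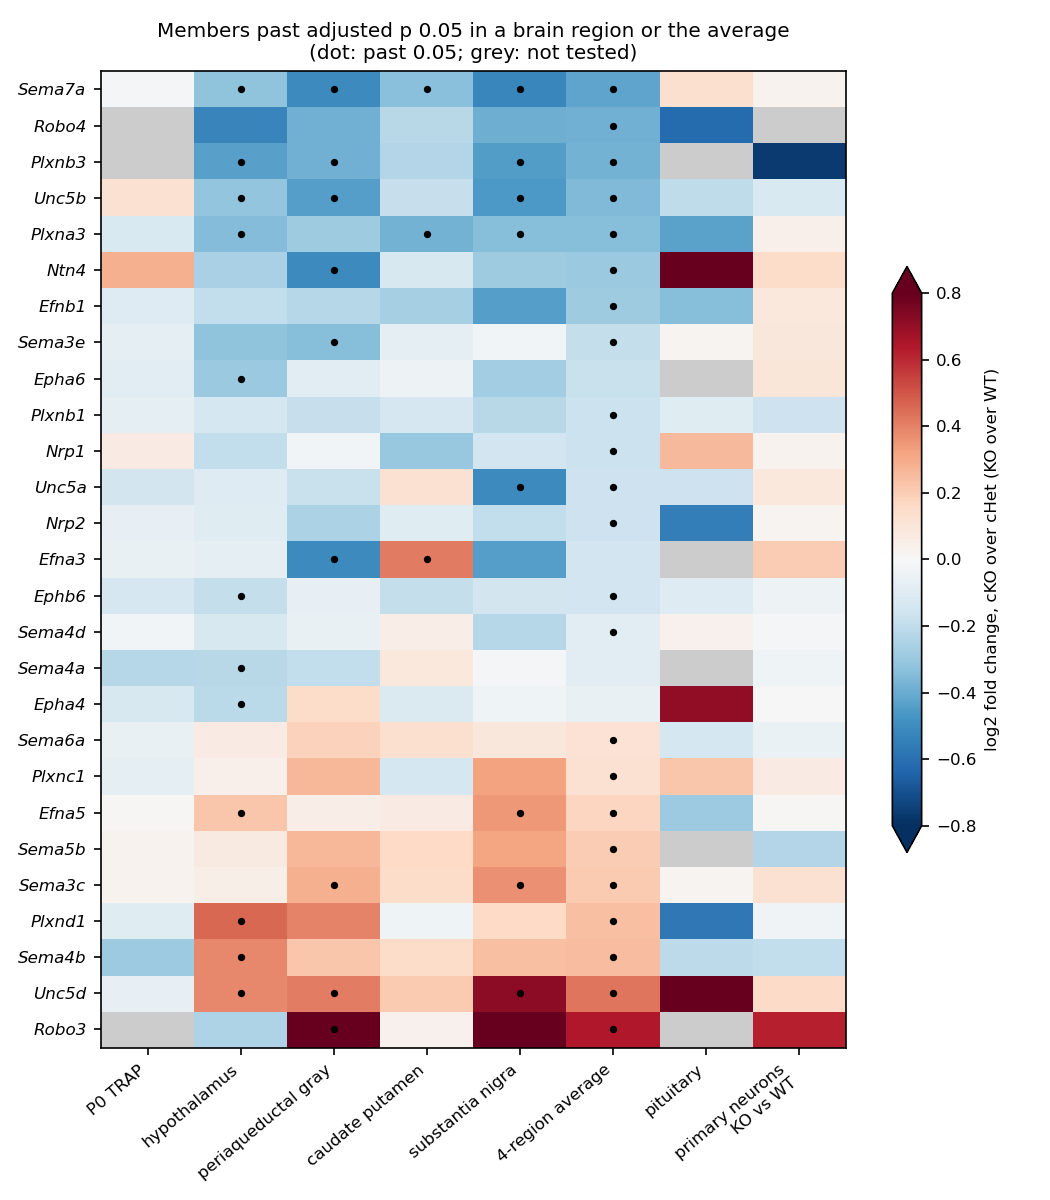
Log2 fold change (colour, limited at 0.8 in either direction) of 27 members in each genotype comparison; a dot shows an adjusted p under 0.05 in the fit without a replicate block and grey a member not tested. The members shown passed in a brain region or in the average; Sema7a carries a dot in all 4 regions, and none of the 27 carries one in P0 TRAP, pituitary or primary neurons, where Plxnb1, Plxnb3, Robo3 and Unc5d passed with the block.

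The regional set itself was marked in cHet mice. Of 67 members, 64 differed between the 4 regions, against 83.2% of genes; Robo4, Efna4 and Sema3g did not pass. Counting the region of the highest mean, 20 members peaked in caudate putamen, 19 in hypothalamus, 18 in substantia nigra and 10 in periaqueductal gray. Set against the other 3 regions, 27 members were higher and 18 lower in hypothalamus, against 47.6% of all genes (24.6% higher, 23.1% lower). Counts were 20 higher and 19 lower in periaqueductal gray, against 46.7% (23.7% and 23%). Caudate putamen had 24 higher and 32 lower, against 62.7% (31% and 31.7%), and substantia nigra also 24 higher and 32 lower, against 66.4% (33.6% and 32.7%).

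Differences of caudate putamen from the rest reached 4.46 on the log2 scale. Plxnd1, known from striatal projection neurons of the direct pathway, averaged 179 ± 10 CPM there, against 24.2 CPM in hypothalamus, 12.6 CPM in periaqueductal gray and 19.9 CPM in substantia nigra (log2 difference from the other 3 regions 3.30 ± 0.07, SE; SD over n = 4). Sema3a, the secreted repellent of Nrp1-bearing axons, averaged 47 ± 4.4 CPM, against 13.7, 3.05 and 1.9 CPM in the same 3 regions (3.45 ± 0.12). Robo3 averaged 16.1 ± 1.3 CPM, against 1.57, 0.388 and 0.59 CPM (4.46 ± 0.20). All 3 were thus mainly found in caudate putamen among these regions. The ephrin Efnb2 (2.67 ± 0.07), Slit3 (2.23 ± 0.10), Robo2 (1.71 ± 0.08), Sema3e (1.65 ± 0.07), Epha7 (1.64 ± 0.09), Epha4 (1.497 ± 0.08) and Plxna2 (1.45 ± 0.06) were higher there as well. Slit1 (-1.64 ± 0.10), Ephb2 (-1.56 ± 0.11), Plxna1 (-1.51 ± 0.09), Sema4g (-1.10 ± 0.05) and Sema4a (-0.90 ± 0.06) were lower.

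Hypothalamus was led by Plxnc1, the receptor of Sema7a, at 132 ± 8.5 CPM, against 50.5 CPM in periaqueductal gray, 50.4 CPM in caudate putamen and 23 CPM in substantia nigra (1.77 ± 0.07). Its ligand Sema7a ran the other way, lowest in hypothalamus at 59.7 CPM and at 93.7 CPM in periaqueductal gray, 165 CPM in caudate putamen and 128 CPM in substantia nigra (hypothalamus -1.07 ± 0.08). Slit1 averaged 210 CPM in hypothalamus and 181 CPM in periaqueductal gray, against 42.2 CPM in caudate putamen and 60.1 CPM in substantia nigra. Nrp2 (1.45 ± 0.08), Slit1 (1.44 ± 0.08), Unc5d (1.43 ± 0.08), Slit2 (1.22 ± 0.07), Efnb1 (1.11 ± 0.11) and Efna5 (1.09 ± 0.07) were higher in hypothalamus, while Sema3e (-1.42 ± 0.08) and Ntn1 (-0.82 ± 0.08) were lower. Periaqueductal gray shared the higher Unc5d (1.18 ± 0.08), Slit1 (1.16 ± 0.08) and Slit2 (0.78 ± 0.07) and had its own peak in Sema3f, at 42.6 CPM against 20.5, 27.6 and 23.4 CPM in hypothalamus, caudate putamen and substantia nigra (0.85 ± 0.08).

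In substantia nigra Sema3b had the largest excess, at 9.18 CPM, against 3.91 CPM in hypothalamus, 1.82 CPM in periaqueductal gray and 2.13 CPM in caudate putamen (1.88 on the log2 scale), followed by Ntn1, at 78.5 ± 8.8 CPM, against 22 CPM in hypothalamus, 24.3 CPM in periaqueductal gray and 30.7 CPM in caudate putamen (1.63 ± 0.07). Plxnb3 (1.14 ± 0.07), Unc5b (1.00 ± 0.08), Sema6d (0.86 ± 0.06) and Sema4d (0.82 ± 0.05), a semaphorin known from oligodendrocytes, were higher there too. Summed oligodendrocyte markers were 43622 to 59618 CPM in substantia nigra, against 14838 to 17402 CPM in hypothalamus; their part was not tested. Sema3a (-2.70 ± 0.18), Nrp2 (-2.23 ± 0.10), Unc5d (-2.15 ± 0.10), Efnb2 (-1.91 ± 0.09), Plxnc1 (-1.60 ± 0.08) and Slit3 (-1.52 ± 0.13) were lower.

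**Figure D5:**
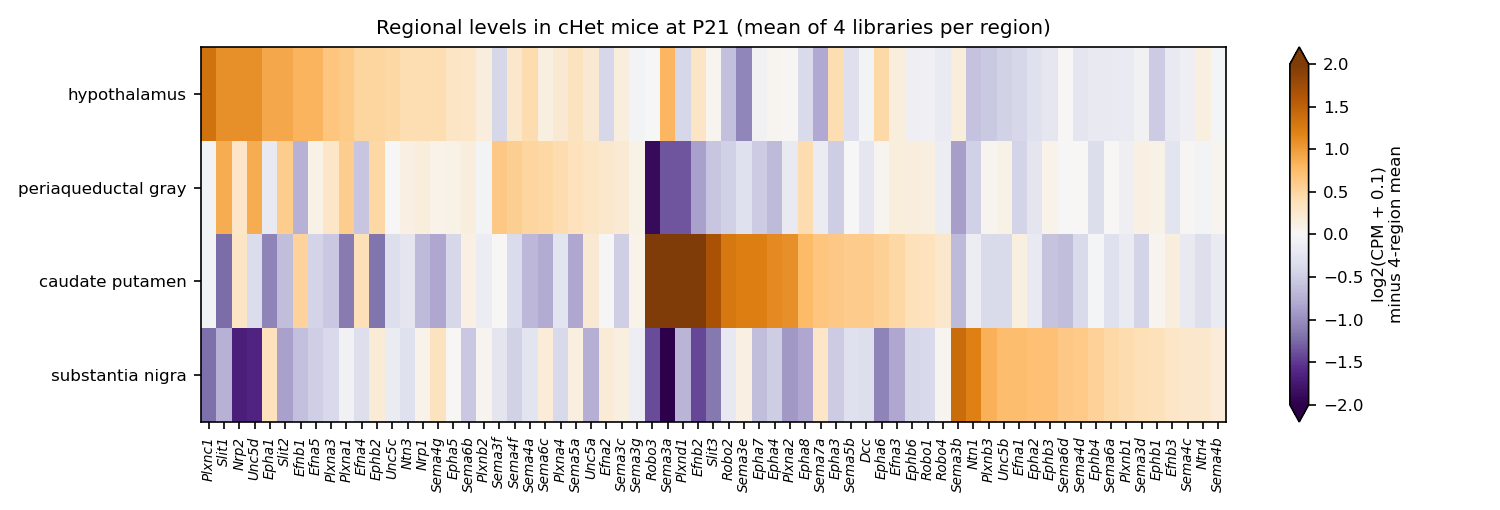
Colour gives log2(CPM + 0.1) of each member in the 4 regions of cHet mice (mean of 4 libraries each) minus the member's mean over the 4 regions, limited at 2 in either direction. Plxnd1, Sema3a and Robo3 stand high in caudate putamen, Plxnc1 in hypothalamus and Ntn1 in substantia nigra.

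Genes around these ligands and receptors were counted from 2 further lists. Of 46 other guidance genes tested in the average over regions, 8 were higher and 7 lower in cKO (32.6%), and of 67 cytoplasmic effectors 15 were higher and 12 lower (40.3%), against the 39% of all genes. Dpysl4, a collapsin response mediator protein that acts below semaphorin receptors, was higher in all 4 regions (0.59 ± 0.05 on average, adjusted p = 2.36e-11), as was Crmp1 of the same family (0.32 ± 0.04, adjusted p = 4.3e-08). Cntn2, an adhesion molecule of axons and of myelinated fibres, was lower in all 4 (-0.56 ± 0.05, adjusted p = 5.76e-10). In TRAP 0 genes of either list passed (edgeR; 6 and 5 had an unadjusted p under 0.05, and DESeq2 was counted for the members alone).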

How the data were processed

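Libraries were made from polyadenylated RNA with a TruSeq kit, per the labels' protocols. The deposited tables hold, for each gene, an RPKM value, a tag number and the length of its exons. The submitters' processing notes name mm10 and edgeR; which aligner, counter, annotation and strand setting made the tags is not given in the sources used here. The deposited tag numbers are read counts per gene: whole counts in 6 pituitary tables and, in 56, estimated counts with fractions in 4.56% to 18.8% of genes; these were rounded. The authors' deposited RPKM values were reproduced from tags and length. Within each group no 2 libraries agreed within sampling noise. Libraries of different groups were not compared in this way.

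Each comparison was fitted on its whole table with edgeR 4.0.16 in R 4.3.3 (filterByExpr with a minimum count of 10 and total of 15, TMM scaling, quasi-likelihood F test, Benjamini-Hochberg adjustment over all genes tested, threshold 0.05), with limma 3.58.1 loaded by edgeR. DESeq2 1.42.0, other scaling, no filter, a replicate block, a sex covariate, leaving out Rn45s and leaving out each library were alternatives. The sex covariate was run in TRAP alone, so no fit of the regions, pituitary or primary neurons took up sex. Rn45s was left out in TRAP, in pituitary and in the joint fit of TRAP and primary neurons. The code was tested on simulated data. Intervals are 1.96 standard errors either side. Between the groups of a comparison, numbers were treated as pairing where all same-numbered libraries deviated together by a correlation over 0.1: in primary neurons (0.167 to 0.363) and pituitary (0.137 to 0.144), from the data and not the labels. Between regions, cKO libraries also passed this for hypothalamus with caudate putamen (0.106 to 0.172) and periaqueductal gray with caudate putamen (0.107 to 0.126). The main fits over regions did not take this up. Summing regions by number did, as did the replicate block in the interaction and region tests, where it was set by genotype and number.

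The members and the lists were chosen with earlier results of these data known. The text names each member past the threshold, at most 15 a comparison by size of change, members passing in 2 or more genotype comparisons in each of them, and the leading member per role in TRAP; of other lists at most 4 genes. Symbols of all 68 members matched RefSeq (GRCm38.p6), which supplied coordinates and start windows (for 58 members).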

Additional observations from a re-analysis of the deposited data

Results flagged for a closer look

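Of 116 groups of 4 to 10 libraries tested for members named above, 5 held 1 library far from the rest by Dixon's criterion, which chance gives in about 1 group of 20. In cHet TRAP, library 5 had 11.9 CPM of Slit3, against 5.03 to 7.55 CPM in the other 5. In cKO hypothalamus, library 3 had 39.1 CPM of Sema7a, against 49.6 to 51.3 CPM in the other 3; without it the fold change did not pass (adjusted p = 0.105). In cHet hypothalamus, library 4 had 74.5 CPM of Ephb6, against 67.1 to 68.0 CPM in the rest; without it the adjusted p was 0.134. In cKO substantia nigra, library 3 had 13.7 CPM of Unc5d, against 21.4 to 21.6 CPM, and without it the call was kept. In cHet substantia nigra, library 4 had 145 CPM of Sema7a, against 120 to 124 CPM, and the call was kept without it.

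Efna3 had a genotype effect that differed between regions by the interaction test (adjusted p = 0.027, edgeR): higher in cKO than in cHet caudate putamen and lower in cKO than in cHet periaqueductal gray.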

How the results depend on the processing

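Each named result that passed kept its direction under the alternatives run; 23 results that did not pass changed sign in 53 fits, with values within 0.34 of 0 on the log2 scale. Counts of members called moved by over 1.5 times as follows. With DESeq2, caudate putamen gave 6 (3 in the report), KO against WT 1 (Ephb4, adjusted p = 0.0262), KO + Impact against WT 1 (Unc5d, 0.00205) and the interaction 3 (with Unc5a and Robo3). Without the low-count filter, caudate putamen gave 5 and KO + Impact against WT 1 (Unc5d, 0.0482). With the replicate number as a block, periaqueductal gray gave 17, caudate putamen 6, substantia nigra 5, the interaction 2 (with Unc5a), KO against WT 8 and KO + Impact against WT 5. Within each region and TRAP the numbers did not pair cKO with cHet libraries (same-number correlations -0.17 to 0.129). The block counts of single regions therefore describe numbers only. In the interaction the block instead joined same-numbered libraries of different regions within a genotype. The block changed no other count by that much. Summing regions by number gave 15 members in the average against 23. The shares of all genes for the primary neuron blocks are given above. The other counts in this section stand without such a share, so they cannot be set against all genes.

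Leaving out 1 library gave 6 to 12 members in hypothalamus, 4 to 9 in periaqueductal gray, 2 to 6 in caudate putamen, 4 to 8 in substantia nigra, 22 to 26 in the average, 0 to 2 in the interaction, 63 to 65 between regions and 0 to 1 in KO against WT and in KO + Impact against WT. The low counts came without cHet 3, cHet 4 or cKO 2 (6) and without cHet 1, cKO 1 or cKO 3 (7) in hypothalamus, cHet 2 in periaqueductal gray (4), and cHet 1 or cKO 2 in substantia nigra (4). The high counts in caudate putamen came without cKO 3 (5) or cKO 4 (6); without cKO 1, whose title and tag differ, it stayed at 3. TRAP, pituitary and KO + Impact against KO stayed at 0 throughout, including, where run, with sex as a covariate and with Rn45s left out. Unrounded tags, also tried after the data were seen, changed no call. The 2.24 M to 3.10 M tags of pituitary, of which Rn45s took 15.4% to 40.8%, limit its precision.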
